A study of Mus musculus with 9 samples.

Results

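A set of 10 genes of the T cell surface was read across 3 sorted spleen populations of the mouse. They are Cd2, Cd5, Cd6, Cd27, Cd28, Cd40lg, Cd96, Thy1, Trat1 and Sit1, which were taken by name. All 10 are rows of the deposited table of 50508 gene symbols. All 10 passed the filter on low counts, applied to the 3 populations together, which left 14708 genes. The populations were TDC, conventional dendritic cells (DC) and conventional T cells, with DC and T cells as the controls of TDC. All mice were naive, untreated and 8 weeks old, and carried Zbtb46-GFP, a reporter of a DC transcription factor gene, in homozygous form, so all groups carry the reporter allele and no group without it was compared. Each population had 3 libraries, and each library pools spleen cells of 5 mice for replicate 1 and of 6 mice for replicates 2 and 3. How each population was gated is not stated in the labels.

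A T cell that meets antigen through its receptor needs further contacts to respond. CD28 is the classical costimulatory receptor, CD2 strengthens adhesion, and CD27 and CD40 ligand belong to the tumour necrosis factor receptor and ligand families. CD5 and CD6 are scavenger receptor cysteine-rich (SRCR) proteins that tune receptor signals, and CD96 binds nectin-family proteins. Thy-1 is a glycolipid-anchored protein that marks mouse T cells. TRAT1 (also called TRIM) and SIT1 are small transmembrane adaptors of the antigen receptor. Several of these genes are not exclusive to T cells: CD5 is also carried by B-1 cells and, in humans, by some type 2 DC, and CD27 and CD96 are also carried by natural killer cells.

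Libraries held 10986544 to 25676640 reads assigned to genes. Values below are counts scaled by TMM factors to CPM, the counts of a gene per 1e+06 counts of its library, and p-values are from edgeR's quasi-likelihood test, adjusted over all 14708 genes. The libraries read near the 3' end of transcripts, so levels are not divided by gene length. Nothing in the labels says which animals entered a pool, so p-values measure the spread between pools. The summed level of 5 defining T cell markers (Cd3d, Cd3e, Cd3g, Trac and Bcl11b) was 37.4 to 119.7 CPM in TDC libraries, 0 to 2.44 in DC libraries and 3684 to 5457 in T cell libraries, with Cd3e and Cd3g at 0 in DC. All 5 were detected in TDC. The 6 conventional DC markers summed to 2037 to 4776 CPM in TDC, 19442 to 38406 in DC and 5.63 to 10.2 in T cells. The 8 macrophage markers summed to 37693 to 71009 CPM in TDC, against 184 to 299.8 in DC and 1.83 to 4.84 in T cells. In such bulk libraries, fewer T cells in a population and less RNA per cell cannot be told apart.

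Promoter sequences were found in the RefSeq table (GRCm38.p6) for 5 of the 10 genes. Shown are the 3 whose transcribed bases also lie in a GENCODE transcript of the gene: Cd5, the member with the highest level in DC, and Sit1 and Cd96, which were lower there. Each runs from 250 bases before to 50 bases after a RefSeq transcript start, 5′ to 3′ on the minus strand of its chromosome (Cd5 chr19:10738925-10739224, Sit1 chr4:43483660-43483959, Cd96 chr16:46120199-46120498).
Cd5: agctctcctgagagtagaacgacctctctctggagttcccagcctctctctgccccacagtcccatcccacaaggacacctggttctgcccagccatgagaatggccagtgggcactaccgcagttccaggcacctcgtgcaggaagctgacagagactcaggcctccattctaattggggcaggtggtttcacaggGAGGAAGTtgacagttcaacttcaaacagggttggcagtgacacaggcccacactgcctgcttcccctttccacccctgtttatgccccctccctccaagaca
Sit1: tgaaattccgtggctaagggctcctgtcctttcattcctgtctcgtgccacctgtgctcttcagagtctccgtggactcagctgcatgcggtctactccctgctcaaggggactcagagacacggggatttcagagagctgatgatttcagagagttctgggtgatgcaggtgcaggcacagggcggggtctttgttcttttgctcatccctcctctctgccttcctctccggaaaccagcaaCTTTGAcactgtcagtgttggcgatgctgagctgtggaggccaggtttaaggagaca
Cd96: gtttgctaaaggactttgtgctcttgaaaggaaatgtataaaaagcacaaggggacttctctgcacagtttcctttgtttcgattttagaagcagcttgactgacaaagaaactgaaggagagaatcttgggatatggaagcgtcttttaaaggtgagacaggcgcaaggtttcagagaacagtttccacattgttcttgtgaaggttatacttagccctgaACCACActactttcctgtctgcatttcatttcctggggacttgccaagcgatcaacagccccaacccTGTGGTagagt
Capitals mark matches on either strand to 4 short motifs, none of which overlap another. For the factor SPI1 the letters were GAGGAAGT, and for the RUNX family they were TGTGGT. For the family of Lef1 they were CTTTGA. The letters AGATAA were searched for the GATA family, and all were chosen after the sequences had been seen. Cd5 held GAGGAAGT, a motif found in 3.2% of the 32851 promoters of the table. Sit1 held CTTTGA, found in 16.0% of promoters. Cd96 held TGTGGT at 2 places, 1 on each strand, and 16.8% of promoters hold at least 1. AGATAA, found in 11.2% of promoters, was in none of the 3 windows. A match describes letters only.

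All 10 genes were lower in TDC than in T cells, and no TDC library reached the lowest T cell library for any of them. Their log2 fold changes ran from -6.16 to -4.32 with a median of -5.22, against a median of 0.14 over all genes tested. Of all genes, 11.2% were called lower and 21.8% higher in this comparison. Against DC, 8 of the 10 were higher in TDC, where 9.55% of all genes were called higher, and none was lower, where 4.6% were called lower. The exceptions were Cd5 and Cd6. Thy1 and Trat1, among the 8, passed the low-count filter only with the T cell libraries in the fit. For all 10 genes the TDC and DC libraries did not overlap. The share of all genes without such overlap was not computed for either comparison of TDC. The absence of overlap is therefore a description of these libraries and not a result about the set. Of 21 other receptor genes described below, libraries did not overlap for 20 against T cells and 14 against DC. For 23 cytoplasmic partner genes the numbers were 14 and 11. The 10 genes had a median log2 fold change of 5.10 against DC. It was 4.93 with the 2 genes that had no reads in DC at their lower bound. In DC against T cells all 10 were lower, where 8.41% of all genes were called lower. Among the 6 genes with more than 3 reads in DC, log2 fold changes in that comparison ran from -10.45 (Sit1) to -3.58 (Cd5), and Cd40lg and Trat1, without reads in DC, were at least 3294-fold and 2291-fold lower. Without DC replicate 1 the log2 fold change was -9.49 for Cd6 and -11.12 for Cd27, and Sit1, which then had no read in DC, was at least 2632-fold lower. Without DC replicate 2 it was -10.69 for Cd96. The comparisons of TDC share the TDC libraries. With library size as the only scaling, genes called higher and lower numbered 2492 and 3321 in TDC against T cells, where TMM gave 3204 and 1654. They numbered 1135 and 1003 in TDC against DC, where TMM gave 1404 and 677, and 1902 and 1886 in DC against T cells, where TMM gave 2269 and 1237. The T cell markers, all 5 of which had reads in TDC, were called lower than in T cells, as the 10 genes were. Against DC all 5 markers were called higher, unlike Cd5 and Cd6. The part of the markers in these differences was not tested.

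**Figure D1:**
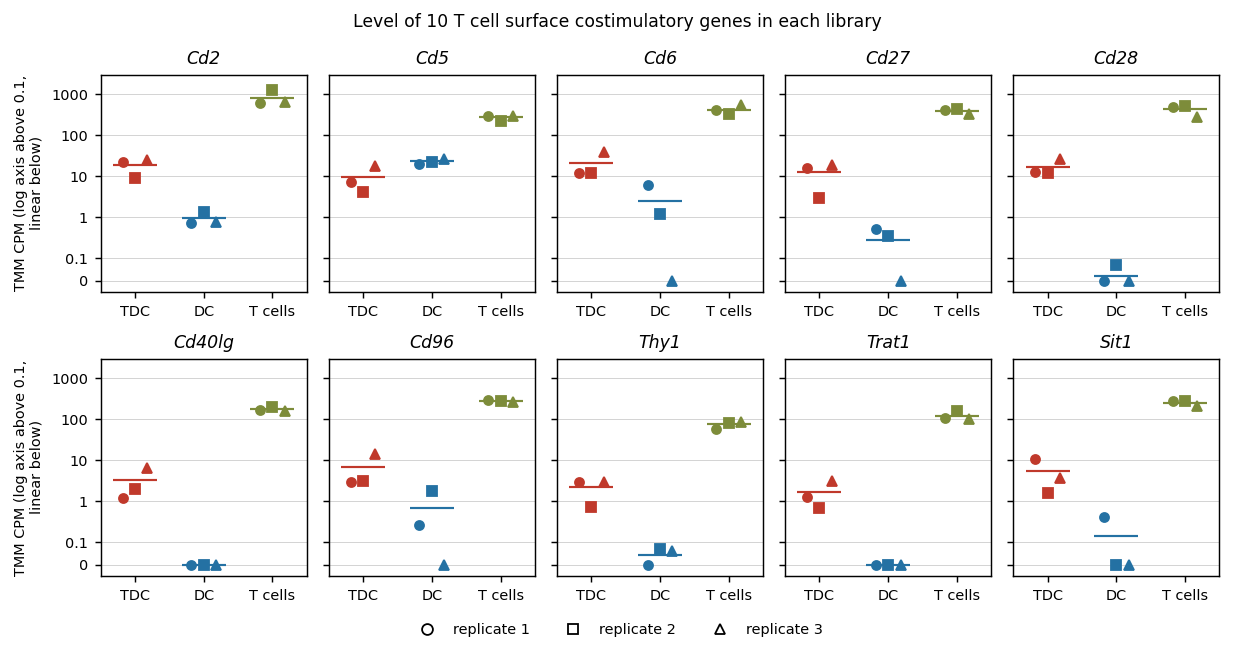
TMM CPM of each of the 10 genes in every library (log axis above 0.1 CPM, linear below), for TDC, DC and T cells, with 1 point per library, shaped by replicate number, and a line at the mean of 3. TDC libraries sit between the DC and T cell libraries for 9 genes, whereas for Cd5 all 3 TDC libraries sit below the DC libraries.

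The receptors CD2 and CD28 bind partners on antigen-presenting cells. Cd28 was at 12.7, 11.9 and 26.7 CPM in TDC replicates 1 to 3, against 0, 0.0697 and 0 in DC and 496, 501 and 281 in T cells. TDC libraries were below every T cell library and above every DC library, in which a single read was counted in all. The log2 fold change against T cells was -4.64 (SE 0.51, adjusted p = 9.16e-05). Against the 1 read of DC, the summed counts of TDC gave a ratio of 960.6, with an exact 95% counting interval of 171.9 to 37990 that covers counting error only, and edgeR called the gene higher (adjusted p = 0.000149). Cd2 was at 22.2, 8.98 and 24.8 CPM in TDC, against 0.727, 1.32 and 0.775 in DC and 596, 1241 and 639 in T cells. Replicate 2 was the highest of the T cell libraries and the lowest of the TDC libraries. Cd2 fell by 5.47 on the log2 scale against T cells (SE 0.53, adjusted p = 4.56e-05) and was higher than in DC (4.32, SE 0.53, adjusted p = 0.000775).

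CD27, a receptor for CD70, and CD40 ligand, which activates CD40 on B cells and DC, are the members of the tumour necrosis factor superfamilies. Cd27 was at 16.0, 2.90 and 18.6 CPM in TDC, against 0.498, 0.348 and 0 in DC and 399, 428 and 326 in T cells. TDC replicate 2 stood below the other two TDC libraries. Cd27 was lower than in T cells (log2 fold change -4.95 with an SE of 0.78, adjusted p = 0.000927) and higher than in DC (5.35, SE 0.87, adjusted p = 0.00289), or 6.18 in the second contrast without DC replicate 1. Cd40lg was at 1.17, 1.95 and 6.48 CPM in TDC, against 0 in every DC library and 164, 193 and 160.0 in T cells. TDC replicate 3 was the highest TDC library, and the T cell libraries were close to each other. The log2 fold change of Cd40lg against T cells was -5.75 (SE 0.68, adjusted p = 0.0004), and -6.77 without TDC replicate 3. Against DC, Cd40lg was at least 61.1-fold higher in TDC (adjusted p = 0.00234), with 3 reads over the DC libraries, or 0.0524 CPM, as the floor. Without TDC replicate 3 that bound was 29.8-fold.

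Cd5 and Cd6, the SRCR pair, are neighbours on chromosome 19 with 1 non-coding gene between them in the RefSeq annotation. Cd5 was at 7.18, 4.07 and 17.1 CPM in TDC, against 19.6, 22.2 and 26.4 in DC and 299.9, 221 and 294 in T cells. It was the only member whose TDC libraries all lay below the DC libraries. The difference did not pass the threshold (log2 fold change -1.26 with an SE of 0.46, adjusted p = 0.102), and without TDC replicate 3 it did (-2.09, adjusted p = 0.00916). Against T cells Cd5 was lower in TDC (-4.84, SE 0.53, adjusted p = 9.47e-05; -5.64 without TDC replicate 3) and in DC (-3.58, SE 0.50, adjusted p = 0.000519).

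In DC the level of Cd5 was 8.36% of the mean level in T cells, whereas the other 9 members were at 0% to 0.575% of it. The T cell markers summed to at most 2.44 CPM in DC, with Cd3e and Cd3g at 0. Of the B cell markers, Ms4a1 was at 6.52 to 28.7 CPM in TDC, 187 to 227 in DC and 0 to 0.422 in T cells. Pax5, a transcription factor of B cells, was at 0 in every TDC library, 0 to 0.421 CPM in DC and 0 to 1.33 in T cells. The part of these markers in the Cd5 level was not tested.

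Cd6 was at 11.8, 11.8 and 39.3 CPM in TDC, against 6.05, 1.18 and 0 in DC and 399, 324 and 535 in T cells. The DC libraries spread from no read to 158 reads, and TDC replicate 3 was far above the other two TDC libraries. Against T cells Cd6 was lower in TDC (log2 fold change -4.32 with an SE of 1.09, adjusted p = 0.0121; -5.18 without TDC replicate 3). That call ended without TDC replicate 2 (adjusted p = 0.0532) and without the low-count filter (adjusted p = 0.0854). Against DC the change did not pass (3.07, SE 1.05, adjusted p = 0.0808). It passed without DC replicate 1 (log2 fold change 5.19), with the DESeq2 Wald test and with limma-voom (adjusted p over the 3 was 0.0122 to 0.0355), and it was 2.21 without TDC replicate 3.

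CD96 binds nectin-family proteins such as CD155 (encoded by Pvr), and Thy-1 is a marker of the T lineage in the mouse. Cd96 was at 2.87, 3.12 and 14.3 CPM in TDC, against 0.268, 1.74 and 0 in DC and 295, 278 and 255 in T cells. A single TDC library, replicate 3, carried most of the TDC level. Natural killer cell markers (4 genes) summed to 0.449 to 2.01 CPM in TDC, 1.37 to 8.64 in DC and 34.4 to 55.0 in T cells, with Ncr1 at 0 in TDC, and their part in the Cd96 level was not tested. Cd96 was lower than in T cells (log2 fold change -5.35 with an SE of 1.01, adjusted p = 0.00268; -6.54 without TDC replicate 3). It passed narrowly against DC (3.42, SE 1.01, adjusted p = 0.0472), and 12 of 17 alternatives ended that call (adjusted p = 0.0531 to 0.186). Among these were the fits without TDC replicate 2 or 3, DC replicate 1 or 3, or any of the 3 T cell libraries. The log2 fold change against DC was 2.23 without TDC replicate 3 and 5.34 without DC replicate 2. Thy1 had the lowest T cell level of the set, at 2.87, 0.725 and 2.98 CPM in TDC, against 0, 0.0697 and 0.0596 in DC and 58.1, 81.9 and 83.7 in T cells. Thy1 was lower than in T cells (-5.10, SE 0.64, adjusted p = 0.000215). Against the 2 reads counted in DC, the TDC counts gave a ratio of 57.3 (exact 95% counting interval 15.4 to 480.5), and edgeR called it higher (adjusted p = 0.00208). Thy1 was tested there only because the T cell libraries carried it through the low-count filter. In a fit of TDC and DC alone it did not pass.

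The adaptors TRAT1 and SIT1 sit beside the antigen receptor in the membrane. Trat1 was at 1.26, 0.669 and 3.13 CPM in TDC, against 0 in every DC library and 105, 156 and 99.0 in T cells. It had the largest fall of the set against T cells (log2 fold change -6.16 with an SE of 0.66, adjusted p = 0.00022; -7.01 without TDC replicate 3). Trat1 was at least 32.2-fold higher in TDC than in DC, with the same floor of 3 reads (adjusted p = 0.00302), and at least 18.4-fold without TDC replicate 3. Like Thy1, it passed the low-count filter only with the T cell libraries in the fit. Sit1 was at 10.7, 1.56 and 3.65 CPM in TDC, against 0.421, 0 and 0 in DC and 272, 282 and 207 in T cells. Here TDC replicate 1 was the highest TDC library, unlike for the other 9 members, and all 11 DC reads came from replicate 1. Sit1 was lower than in T cells (-5.60, SE 0.89, adjusted p = 0.000961; -6.59 without TDC replicate 1). It was higher than in DC (4.86, SE 0.99, adjusted p = 0.00893; 3.83 without TDC replicate 1, and without DC replicate 1 no read of Sit1 remained in DC). The call against DC ended in a fit of TDC and DC alone (adjusted p = 0.0771).

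The level left in TDC was a small share of that in T cells for every member. Relative to the mean of the T cell libraries, the mean TDC level ran from 1.40% ± 1.07 (SD, n = 3 TDC libraries) for Trat1 to 5.01% ± 3.79 for Cd6, with a median of 2.70% over the 10 genes. Without TDC replicate 3 the mean was 0.802% for Trat1 and 2.82% for Cd6, and it was 2.07% for Cd5, 0.903% for Cd40lg and 1.09% for Cd96, against 3.48%, 1.85% and 2.45% with it. Sit1 was at 2.09%, and at 1.03% without TDC replicate 1. Cd28 was at 4.01% ± 1.95, Cd5 at 3.48% ± 2.51 and Cd2 at 2.26% ± 1.03. No member stood apart from the next in the order of TDC levels, since the libraries of every neighbouring pair overlapped. In T cells, Cd2 lay above Cd28, Cd27 above Cd96, Sit1 above Cd40lg, Cd40lg above Trat1, and Trat1 above Thy1 without overlap of libraries.

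The 7 genes of the T cell receptor complex (Cd3d, Cd3e, Cd3g, Cd247, Trac, Trbc1 and Trbc2) were measured beside the set. All 7 were called lower in TDC than in T cells, with log2 fold changes of -5.95 to -5.30. Their TDC levels were 1.62% (Trbc1) to 2.55% (Cd3e) of those in T cells. Of all genes, 11.2% were called lower in TDC than in T cells, and 9.55% higher in TDC than in DC. Trbc1 and Trbc2 are near-identical, so their separate counts are uncertain. Against DC 6 of the 7 were called higher, and Cd247 was not (log2 fold change 2.58, adjusted p = 0.112; it passed with the DESeq2 Wald test, limma-voom or without DC replicate 3, at 0.0202 to 0.0447). The call of Cd3d against DC ended without DC replicate 1, without the filter and in a fit of TDC and DC alone (adjusted p = 0.0559 to 0.0649). Without TDC replicate 3 Trbc1 was at -6.62 against T cells, where it was at -5.95 with it.

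The TDC libraries differed among themselves. Replicate 3 was the highest TDC library for 9 of the 10 members, and replicate 2 the lowest for 8. The summed level of the 10 members was 2.75%, 1.48% and 4.88% of the T cell mean in TDC replicates 1 to 3. The summed receptor complex genes were at 2.58%, 0.706% and 2.58%. Gene by gene the order of replicates 1 and 3 varied in both groups. Cd2 was at 2.69% and 3.01%, and Sit1 at 4.21% and 1.44%, in replicates 1 and 3, while Trbc1 was at 1.51% and 2.76%. Of the 6 conventional DC markers, 5 were highest in TDC replicate 3, among them Flt3 with 13.7, 23.5 and 75.6 CPM in TDC replicates 1 to 3. The most abundant, H2-Ab1, was highest in replicate 1, with 4645, 1870.2 and 3696 CPM. Their part in the level of the members was not tested.

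**Figure D2:**
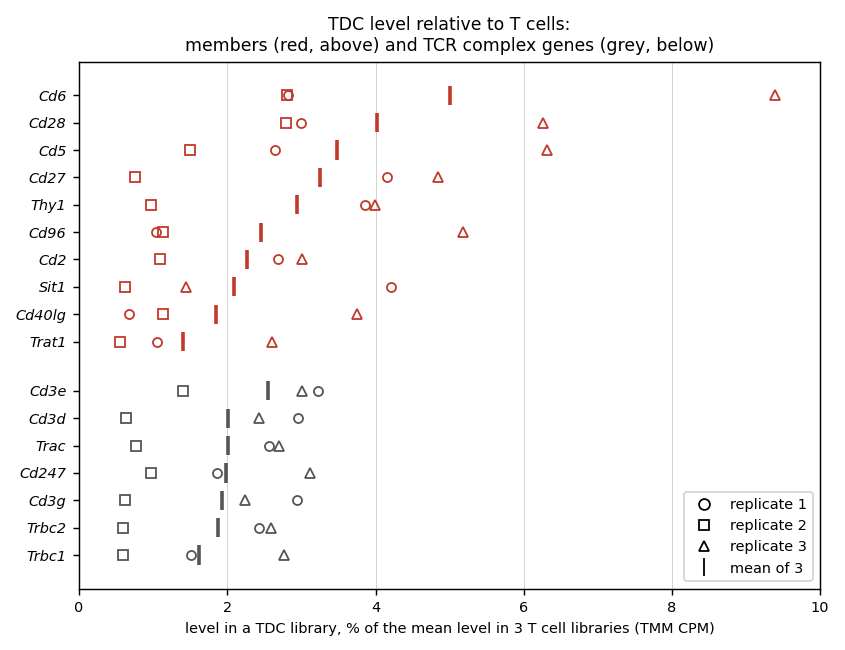
Level of each gene in a TDC library as a percent of its mean level in the 3 T cell libraries (TMM CPM), for the 10 members (upper rows, red) and 7 receptor complex genes (lower rows, grey), with shapes for TDC replicates and a bar at their mean. Member means run from 1.40% to 5.01% and receptor complex means from 1.62% to 2.55%.

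The make-up of the set within a library does not depend on scaling between libraries. Of the reads that fell on the 10 genes, Cd5 took 9.18% ± 1.51 in TDC, against 83.5% ± 12.9 in DC and 8.63% ± 2.32 in T cells (SD, n = 3 each). These shares rest on 854 to 2109 reads per TDC library, 386 to 721 per DC library and 43861 to 75024 per T cell library. Cd2 took 19.9% ± 4.68 in TDC and 25.0% ± 7.49 in T cells, and Cd6 took 21.0% ± 6.66 and 13.4% ± 4.94. The libraries of TDC and T cells did not overlap for 2 genes. Cd40lg took 3.18% ± 1.62 in TDC and 5.37% ± 0.171 in T cells, and Trat1 took 1.60% ± 0.336 and 3.69% ± 0.453. For both, the two-sided exact permutation test gave p = 0.1, the smallest value that 3 libraries against 3 allow, and 0.5 after Benjamini-Hochberg adjustment over the 10 genes. The other 8 genes gave permutation p-values of 0.2 to 1.

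**Figure D3:**
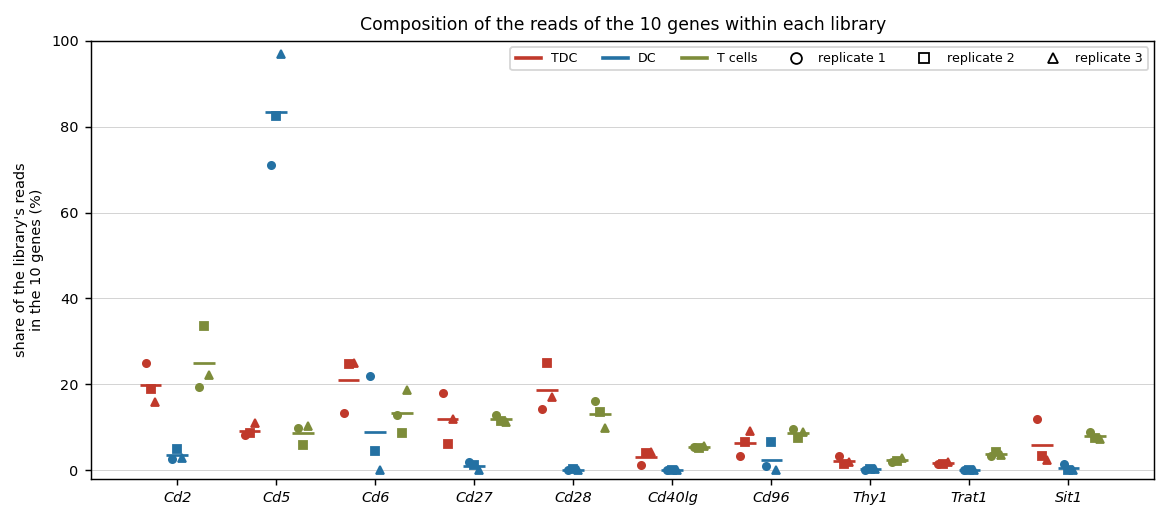
Share of the reads on the 10 genes that each gene took within a library, in percent, for TDC, DC and T cells, with 1 point per library and a line at the mean of 3. Cd5 took 71.2% to 96.9% of these reads in DC libraries and 5.97% to 10.9% in TDC and T cell libraries.

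The binding partners of the members moved differently. CD80 and CD86 bind CD28, CD48 binds CD2 in the mouse, CD40 binds CD40 ligand and CD70 binds CD27. Of 9 such genes 8 were tested, and against T cells TDC had 5 called higher and 1 lower. Of all genes, 21.8% were called higher and 11.2% lower in that comparison. Against DC, 1 of the tested genes was called higher and 3 lower, where 9.55% of all genes were called higher and 4.6% lower. Cd86 was at 1483 ± 189 CPM in TDC, against 233 ± 48.1 in DC and 16.7 ± 3.24 in T cells, and was higher in TDC than in both (log2 fold changes 6.48, SE 0.36, adjusted p = 2.35e-06 against T cells and 2.67, SE 0.31, adjusted p = 0.000503 against DC). Cd80 was at 41.6 ± 5.95 CPM in TDC, 76.1 ± 22.7 in DC and 0.876 ± 1.52 in T cells. It was called against T cells (log2 fold change 5.52, adjusted p = 0.00646; 4.93 without T cell replicate 2) and not against DC (log2 fold change -0.87 with an SE of 1.00, adjusted p = 0.629), and the first call ended without the low-count filter (adjusted p = 0.0553). Cd80 had reads in only 1 T cell library, replicate 3, without which it was at least 478-fold higher in TDC than in T cells. Cd40 was at 24.0 ± 16.2 CPM in TDC, against 164 ± 51.6 in DC and no reads in T cells. It was at least 431-fold higher in TDC than in T cells (adjusted p = 7.9e-05) and lower than in DC (-2.77, SE 0.53, adjusted p = 0.0101). Without TDC replicate 3 the bound was 263-fold and the log2 fold change against DC was -3.52. Macrophage markers were also higher in TDC than in DC and T cells, and their part in these levels was not tested.

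Cd48 was at 749.7 ± 293 CPM in TDC, 369.8 ± 81.8 in DC and 372 ± 81.2 in T cells. Its call as higher than in T cells (log2 fold change 1.01 with an SE of 0.35, adjusted p = 0.0451) ended under 9 of 17 alternatives, among them the replicate block and the fits without TDC replicate 1, DC replicate 1 or any T cell replicate (adjusted p over the 9 was 0.0556 to 0.29). Pvr, which encodes the CD96 partner CD155, was at 8.64 ± 0.728 CPM in TDC, 7.30 ± 0.366 in DC and 22.8 ± 7.84 in T cells. It was called lower than in T cells (-1.40, SE 0.43, adjusted p = 0.0278), a call that ended under 7 of 17 alternatives, including the replicate block and the loss of any TDC replicate or of T cell replicate 1 or 2 (adjusted p = 0.0532 to 0.139). Nectin1, which CD96 also binds in the mouse, was at 0.714 ± 0.840 CPM in TDC, 9.84 ± 1.29 in DC and 0 in T cells. It was called higher than in T cells (at least 12.8-fold over the floor of 3 reads, adjusted p = 0.0237) although the libraries overlapped at 0. The call ended under 6 of 16 alternatives, including the replicate block and the loss of TDC replicate 3 or any T cell replicate (adjusted p = 0.0536 to 0.0699). Without TDC replicate 3 the bound was 4.51-fold, and without TDC replicate 1 it was 19.2-fold.

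CD6 binds CD166, encoded by Alcam, and CD318, encoded by Cdcp1 and identified as a partner in humans. Both genes were lower in TDC than in DC. Alcam was at 3.44 ± 4.08 CPM in TDC, 45.3 ± 2.41 in DC and 1.91 ± 0.747 in T cells (against DC -3.72, SE 0.83, adjusted p = 0.0136, and 0.0627 without TDC replicate 2). Its TDC level came mostly from replicate 3, without which the log2 fold change against DC was -5.37. Against T cells Alcam was not called (0.85, SE 0.77, adjusted p = 0.437). Cdcp1 was at 0.167 ± 0.290 CPM in TDC, 8.30 ± 1.69 in DC and 0 in T cells (against DC -5.46, SE 1.46, adjusted p = 0.0406). That call ended without TDC replicate 1 or 3 or any DC replicate, and with the replicate number as a block (adjusted p = 0.0534 to 0.101). Its TDC reads all came from replicate 2, without which Cdcp1 was at least 68.0-fold lower in TDC than in DC. Cd70 had no reads in TDC or T cells and 0.157 ± 0.143 CPM in DC, and was not tested.

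Of 21 other costimulatory and inhibitory receptor genes, 12 (57.1%) were called lower and 4 (19.05%) higher in TDC when set against T cells, where 11.2% of all genes were called lower and 21.8% higher. Their median log2 fold change was -3.55. Slamf6, a signalling lymphocyte activation molecule (SLAM) family receptor, fell to 54.1 ± 15.3 CPM in TDC, against 322 ± 55.1 in T cells (adjusted p = 0.000177). Tnfrsf18, which encodes the receptor GITR, was at 6.18 ± 4.68 CPM in TDC and 138 ± 60.2 in T cells (log2 fold change -4.49, adjusted p = 0.00112; -5.23 without TDC replicate 3). The 4 higher genes were Cd244, Havcr2, Lag3 and Ly9. Cd244, a receptor for CD48, was at 197 ± 72.2 CPM in TDC, against 311 ± 46.4 in DC and 1.75 ± 0.911 in T cells (adjusted p = 1.09e-05 against T cells). Havcr2, which encodes TIM-3, was at 86.3 ± 29.2 CPM in TDC, 368 ± 31.2 in DC and 1.24 ± 2.09 in T cells. Against DC Havcr2 was not called (log2 fold change -2.09, adjusted p = 0.202). Its log2 fold change against T cells was 6.08 (adjusted p = 0.00358), and 5.49 without T cell replicate 2. All but 1 of its T cell reads came from T cell replicate 3, so the size of the fold depends on that library. Without T cell replicate 3 the log2 fold change was 11.2 (adjusted p = 3.21e-05), against 1 T cell read. Lag3, which encodes an inhibitory receptor for MHC class II, was at 11.7 ± 2.18 CPM in TDC and 0.0673 ± 0.0583 in T cells (adjusted p = 0.00134). Ly9 was at 326 ± 38.5 CPM in TDC and 171 ± 37.2 in T cells, and its call (adjusted p = 0.0448) ended under 9 of 17 alternatives, including the replicate block and the loss of TDC replicate 2 or 3 or any T cell replicate (adjusted p = 0.0702 to 0.498).

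Against DC, 3 of these 21 receptors (14.3%) were called higher and 5 (23.8%) lower in TDC, where 9.55% of all genes were called higher and 4.6% lower. Cd84, another SLAM family receptor, was at 244 ± 35.3 CPM in TDC and 2.62 ± 2.32 in DC (log2 fold change 6.54 with an SE of 1.04, adjusted p = 0.00257). Ly9 was at 326 ± 38.5 CPM in TDC and 105 ± 35.1 in DC (adjusted p = 0.0076). Cd7 fell to 13.9 ± 14.1 CPM in TDC, against 327 ± 151 in DC (adjusted p = 0.00277). Slamf7 was at 24.2 ± 26.6 CPM in TDC and 350.3 ± 41.1 in DC (adjusted p = 0.00679). Without TDC replicate 3 the log2 fold changes of Cd7 and Slamf7 were -5.86 and -5.34, where they were -4.56 and -3.85 with it.

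Of 23 genes for cytoplasmic partners of the members, 8 (34.8%) were called lower and 4 (17.4%) higher in TDC when set against T cells, and 5 (21.7%) higher and 2 (8.70%) lower when set against DC, with medians of -0.31 and 0.11. The share called higher than in T cells was below the 21.8% of all genes. Of all genes, 11.2% were called lower than in T cells, and 9.55% higher and 4.6% lower than in DC. The kinase gene Lck, whose product binds the tails of CD4 and CD8, was at 56.4 ± 31.8 CPM in TDC, 1.08 ± 0.938 in DC and 2346 ± 323 in T cells (adjusted p = 0.00296 against DC). Prkcq, the protein kinase C isoform of CD28 signalling, was at 14.1 ± 11.4 CPM in TDC, 0.140 ± 0.243 in DC and 412 ± 46.3 in T cells (adjusted p = 0.00113 against T cells and 0.00207 against DC). Its log2 fold change was -4.87 against T cells and 6.28 against DC, and -5.79 and 5.34 without TDC replicate 3, and without DC replicate 1, which held all its DC reads, it was at least 146-fold higher in TDC than in DC. Ubash3a, a negative regulator of T cell receptor signals, had no reads in DC and was at least 85.1-fold higher in TDC (adjusted p = 0.00052). Against T cells Ubash3a, the adaptor gene Grap2 and Pstpip1, which encodes a CD2-binding protein, had log2 fold changes of -4.77, -4.22 and -3.81 (adjusted p = 0.000185, 0.000357 and 0.000921). Pstpip1 was at -4.96 without TDC replicate 3.

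The 4 partners that TDC held at higher levels than T cells are also used outside T cells. Cd2ap, an actin-linked adaptor, was at 83.0 ± 13.1 CPM in TDC and 21.5 ± 6.97 in T cells (adjusted p = 0.00261). The calls of the other 3 ended under 3 or more of 17 alternatives. Grb2 was at 238 ± 37.8 CPM in TDC and 110.3 ± 26.1 in T cells (adjusted p = 0.0129, and 0.0511 to 0.148 with library size only, without TDC replicate 2 or without T cell replicate 1). Ptpn6, which encodes the phosphatase SHP-1, was at 1014 ± 104 CPM in TDC and 507 ± 47.1 in T cells (adjusted p = 0.0136, and 0.0515 to 0.261 with library size only, with upper-quartile factors or without T cell replicate 1). Lcp2, which encodes the adaptor SLP-76, was called at an adjusted p of 0.0177, which was 0.0561 to 0.3 under 6 alternatives, among them the fits without TDC replicate 2 or T cell replicate 1 or 2.

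Trat1 and Sit1 were set beside 5 other transmembrane adaptors. Lat, the central adaptor of the receptor, was at 27.1 ± 13.4 CPM in TDC, 0.0592 ± 0.0720 in DC and 1208 ± 287 in T cells (adjusted p = 6.21e-05 against T cells and 0.000161 against DC). Its log2 fold change against DC was 8.80, and 9.75 without DC replicate 2. Lime1 and Lax1 were lower in TDC than in T cells as well, with log2 fold changes of -3.82 and -5.55 (adjusted p = 0.000417 and 0.00175). Lat2, an adaptor of B cells and myeloid cells, was at 7.68 ± 3.66 CPM in TDC, 69.3 ± 25.6 in DC and 2.07 ± 1.46 in T cells. It was lower than in DC (-3.18, SE 0.65, adjusted p = 0.00908). Its call as higher than in T cells (adjusted p = 0.0431) ended under 10 of 17 alternatives, including the replicate block and the loss of TDC replicate 1 or 3, DC replicate 1 or T cell replicate 1 or 3 (adjusted p = 0.0643 to 0.124). Pag1 was not called in either comparison of TDC. The median log2 fold change of the 5 was -3.82 against T cells and 0.75 against DC, where all genes had 0.14 and 0.014.

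Most other SRCR genes moved against T cells in the opposite direction to Cd5 and Cd6. Of 7 genes 6 were tested, and against T cells TDC had 5 called higher and 1 lower. Of all genes, 21.8% were called higher and 11.2% lower in that comparison. Against DC, 4 of the tested genes were called higher and 0 lower, where 9.55% of all genes were called higher and 4.6% lower. Cd5l, whose product is a secreted macrophage protein despite the shared name, was at 3013 ± 845 CPM in TDC, 0.612 ± 1.06 in DC and 0 in T cells (adjusted p = 0.000292 against T cells and 0.00172 against DC). The scavenger receptor genes Marco, Cd163 and Msr1 were at 1278 ± 543, 485 ± 361 and 81.6 ± 11.5 CPM in TDC, and each was at most 5.09 in any DC or T cell library. They were called higher than in T cells (adjusted p = 0.000328, 0.001 and 0.000153) and higher than in DC (adjusted p = 0.00196, 0.00585 and 0.00234). The call of Cd163 against DC ended without the low-count filter (adjusted p = 0.0583). Its log2 fold change was 10.44 against T cells and 7.85 against DC, and 9.60 and 7.01 without TDC replicate 2, 12.53 against T cells without T cell replicate 1, 9.81 without T cell replicate 3, and 10.00 against DC without DC replicate 1. All DC reads of Cd5l and Marco came from DC replicate 1. The log2 fold change of Msr1 against DC was 6.34, and 7.32 without DC replicate 1. Ssc4d was at 6.91 ± 3.54 CPM in TDC and 0.0399 ± 0.0361 in T cells (adjusted p = 0.00171). The macrophage markers, which include Cd5l, moved in the same direction, and their part in these levels was not tested. The single lower gene was Cd163l1, with no reads in TDC or DC and 5.03 ± 1.11 CPM in T cells (at least 71.3-fold lower in TDC, adjusted p = 0.00435).

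**Figure D4:**
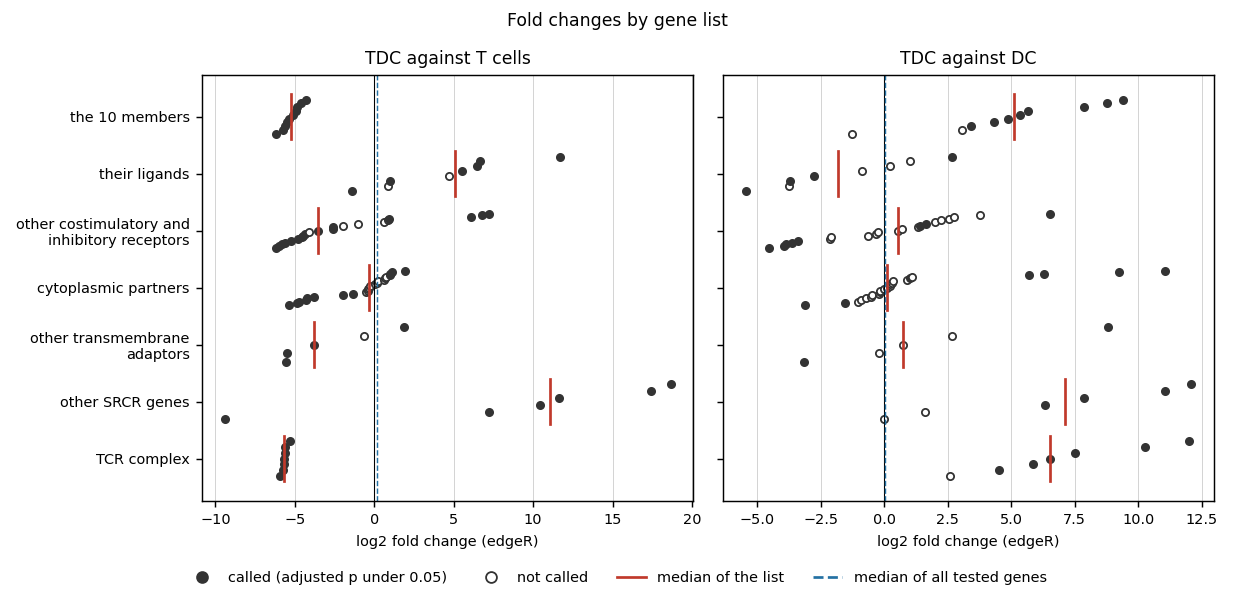
Log2 fold changes (edgeR) of the tested genes of each list for TDC against T cells (left panel) and TDC against DC (right panel), with filled points for called genes, open points for the rest, a red bar at the median of each list and a dashed line at the median of all tested genes. The 10 members lie between -6.16 and -4.32 against T cells and have a median of 5.10 against DC, while their ligands have medians of 5.11 and -1.82. Points of genes with no reads in a group depend on the fit's prior count.

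The fitted ligand median of 5.11 against T cells was 2.63 with the 3 ligand genes that had no reads in T cells at their lower bound. Outside the set, the 5 genes whose log2(CPM + 1) pattern over the 9 libraries was most like the mean of the members were Tdrp, Camk4, Nsg2, Trbc1 and A630023P12Rik, with Pearson r of 0.997 to 0.999. The 9 libraries fall into 3 sorted populations, so the 9 points are not independent and r is given as a description. Tdrp was at 3.30 ± 2.03 CPM in TDC, no reads in DC and 134 ± 14.5 in T cells. Camk4, which encodes a calcium-dependent kinase, was at 3.36 ± 2.60 CPM in TDC, no reads in DC and 120.0 ± 16.4 in T cells. Among the members, Cd5 was least like the common pattern (r = 0.855) and Cd6 the next (r = 0.967), and the other 8 had r of 0.972 to 0.996. Each member is itself part of that mean, so these values are not comparable with those of the genes outside the set.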

How the data were processed

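RNA of 9 sorted spleen libraries was extracted with a column kit and made into Lexogen stranded QuantSeq libraries, per the labels' protocols. The deposited values are raw read counts for each gene symbol, in whole numbers. FastQC, MultiQC, Trimmomatic, STAR and featureCounts were used, per the submitters' processing notes, which give no versions. Those notes list a human build, hg38, for mouse symbols. The sources used here name neither annotation nor strand setting, so overlapping and antisense genes stay uncertain. Gene names were taken from the table itself, with Cd244a matched as Cd244.

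The counts were tested with edgeR 4.0.16 (R 4.3.3): filterByExpr (minimum count 10, minimum total 15), TMM factors, then a robust fit by quasi-likelihood of the 3 groups (6 residual degrees of freedom), with Benjamini-Hochberg adjusted p-values called at 0.05. Each SE is the absolute log2 fold change divided by the square root of its F statistic. Against a group with no reads, folds are lower bounds from 3 reads over that group. Replicates differed beyond sampling noise (chi-square per degree of freedom 62.3 to 250.4), so none was merged. Alternatives changed the scaling (DESeq2 size factors, library size only, upper-quartile factors), dropped the filter, changed the tool (Wald test of DESeq2 1.42.0, voom of limma 3.58.1), fitted 2 groups alone, blocked on the replicate number or left out a library.

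The members and lists were chosen with earlier results of these data known. Named genes were all members, receptor complex genes and ligands. From each other list they were up to 4 called genes with the smallest adjusted p in each comparison of TDC (with T cells first, then DC) and any gene called higher in the first of them. The 5 genes most like the members were added. A gene that this rule names is not reported here.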

Additional observations from a re-analysis of the deposited data

How the results depend on the processing

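Each member was lower in TDC than in T cells under all 17 alternatives in direction, and Cd6 alone lost its call, under 2 of them. All 10 were called lower in DC than in T cells under all 17. Against DC, 4 members were called higher in a fit of TDC and DC alone, where Thy1 and Trat1 did not pass the filter and Cd96 and Sit1 lost their calls, and 1 (Cd5) was called lower when TDC replicate 3 was left out. Leaving out 1 library gave 7 to 8 higher and 0 to 1 lower members. Of 168 values of members against DC, 13 lost and 4 gained a call.

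Over all genes, library size as the only scaling gave 3321 lower genes in TDC against T cells and 1886 in DC against T cells (1654 and 1237 with TMM), and moved the median log2 fold change of TDC against T cells to -0.47, against 0.14. With that scaling member levels in TDC were 0.983% (Trat1) to 3.44% (Cd6) of those in T cells. For TDC against DC, lower genes numbered 677, and 1234 with the DESeq2 Wald test, 1024 with limma-voom and 431 with the replicate block. Leaving out 1 library gave 937 to 1945 lower genes for TDC against T cells, and 293 to 611 lower and 897 to 1365 higher for TDC against DC. The lowest values came without TDC replicate 2. T cell replicate 2 (1030 lower against T cells), TDC replicate 1 (447 lower against DC) and DC replicate 1 (418) also moved a count by over 1.5 times. The cause was not tested.

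Same-numbered columns share a code whose meaning is not stated and a number of pooled mice, so same-numbered libraries may come from the same pools. Correlations of their deviations ran from -0.53 to 0.36. They cannot decide this, because the deviations of 3 libraries from their own mean are tied to each other. The main fit did not take the numbers as pairs, and the replicate block was an alternative that did. The replicate block ended the calls of Cd96 (log2 fold change 3.42, adjusted p = 0.0986) and Cdcp1 (0.0711) against DC and of Cd48, Pvr, Nectin1, Ly9 and Lat2 against T cells (0.0573 to 0.0782), and no other call of a named gene. Small differences in the make-up of the set changed sign when 1 library was left out. Over all such fits, TDC minus T cells ran from -2.96 to 2.99 percentage points for Cd27, from -0.623 to 0.233 for Thy1 and from -0.785 to 1.34 for Cd5. Leaving out 1 library gave -0.78 to 1.35 for Alcam and 0.0 to 5.27 for Cdcp1 (log2, TDC against T cells), neither of them called, and library size only gave -0.066 for Pvr against DC. By the floor of 3 reads DC was the deepest group (0.0524 CPM, against 0.0706 in TDC and 0.0557 in T cells), and 5 members had at most 11 reads there.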
